A study of Mus musculus with 6 samples.

Results

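The genes described here are 10 genes of fibroblast growth factor (FGF) signalling, measured by RNA sequencing in subcutaneous H22 mouse liver tumours. They are the receptor tyrosine kinases Fgfr1, Fgfr2, Fgfr3 and Fgfr4, the receptor-like protein Fgfrl1, the ligands Fgf1, Fgf2 and Fgf7, the co-receptor Klb and the adaptor Frs2. They were chosen by gene symbol, with earlier results of these data known, and all 10 were found among the 20482 genes of the deposited count table. H22 is a mouse hepatocellular carcinoma line, and each tumour grew from 1000000 cells placed under the skin of the right flank of a male C57BL/6 mouse aged 6 weeks, with a genotype given as WT. The resistant group (H22-LR, 3 tumours) came from mice given 2 cycles of lenvatinib at 100 mg/kg/day by intraperitoneal injection. The sensitive group (H22-NR, 3 tumours) came from control mice.

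The labels leave the treatment of the control mice unclear. The protocol names both lenvatinib and a PBS and DMSO solvent for them, and another field lists no treatment for any of the 6, so the groups were taken from the sample titles. Drug exposure and resistance cannot be told apart in this design, since the resistant tumours carried both. The design text calls the tumours biological replicates, so p-values measure the spread between tumours. The tumours came from 1 cell line in 1 strain and sex.

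FGFs are secreted or intracellular proteins of one family. The secreted ones bind receptor tyrosine kinases on the cell surface together with heparan sulfate, and the activated receptor signals through the adaptor FRS2 to the RAS and MAP kinase pathway. Hormone-like FGFs bind heparan sulfate weakly and need a Klotho co-receptor instead. In liver, FGF15 of the mouse, the counterpart of human FGF19, acts on hepatocytes through FGFR4 and beta-Klotho, the product of Klb, and lowers bile acid synthesis. Lenvatinib is an inhibitor of several receptor tyrosine kinases, FGF receptors and VEGF receptors among them.

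Among the kinase receptors Fgfr1 to Fgfr4, Fgfr1 was predominant in both groups, Fgfr4 was almost unread, and Frs2 stood at nearly the same level in all 6 tumours. None of the 8 FGF genes that could be tested differed between resistant and sensitive tumours in edgeR's quasi-likelihood fit, either after adjustment at a threshold of 0.05 or before it. In no FGF gene did the 3 resistant tumours lie wholly above or below the 3 sensitive ones. Over all 14392 genes tested, 0% were called at an adjusted p under 0.05, 9.76% had an unadjusted p under 0.05, and 16% had groups that did not overlap. The count of 0 genes called over the whole table was 115 by DESeq2, 39 by edgeR's exact test and 0 by limma-voom. None of these tools called an FGF gene, and each of them gave 0 FGF genes at an unadjusted p under 0.05.

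Total counts lay between 15995403 and 17545098 per tumour, a ratio of 1.1 between the deepest and the shallowest. A floor of 3 counts, the most that a count of 0 allows, corresponds to 0.171 to 0.186 counts per 1000000 reads (CPM) and covers counting error only. The 1404 genes at an unadjusted p under 0.05 were 579 higher and 825 lower in resistant tumours. With library size as the only scaling the split was 814 higher and 585 lower. The median log2 fold change over all tested genes was -0.02, and no scaling moved that median by more than 0.1. All log2 fold changes are resistant over sensitive from counts scaled by the trimmed mean of M values (TMM), with their standard error (SE) and 95% confidence interval, and adjusted p-values are from edgeR's quasi-likelihood test with Benjamini-Hochberg adjustment over all genes tested.

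The tumours carried RNA of several cell types besides tumour cells, and a bulk sample cannot tell fewer cells of a type from less RNA per cell. Among hepatocyte markers, albumin (Alb) had 117.9 ± 5.10 CPM in resistant and 183.6 ± 15.5 CPM in sensitive tumours (SD, n = 3 each), and the hepatocyte regulator Hnf4a stayed under 3 CPM. Summed over 10 T cell markers, resistant tumours 1 to 3 had 10.5, 10.8 and 33.6 CPM, against 47.9, 488.6 and 29.2 CPM in sensitive tumours 1 to 3. The sum over 10 B and plasma cell markers was 83.1, 153.7 and 134.2 CPM in resistant tumours and 315.9, 12690 and 134 CPM in sensitive ones. Sensitive tumour 2 stood apart in both lists. All 10 T cell, 7 tested B and plasma cell and 8 tested hepatocyte markers had a log2 fold change below 0. In edgeR's quasi-likelihood fit 8, 6 and 1 of them had an unadjusted p under 0.05, against 9.76% of all genes tested. That fit called none after adjustment, while DESeq2 called 3 T cell markers and Alb. By limma-voom 0 T cell and 0 B and plasma cell markers had an unadjusted p under 0.05.

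To compare genes with each other, levels are given per gene length, as the deposited FPKM (fragments scaled to transcript length and sequencing depth). Over the 6 tumours Frs2 averaged 11.5 ± 1.05 FPKM (SD, n = 6), Fgfrl1 averaged 3.39 ± 0.643 FPKM and Fgfr1 averaged 2.60 ± 1.04 FPKM. Next came Fgf7 at 1.51 ± 0.990 FPKM and Fgf2 at 1.17 ± 0.662 FPKM. Klb averaged 0.361 ± 0.228 FPKM, Fgf1 0.221 ± 0.137 FPKM, Fgfr2 0.124 ± 0.144 FPKM, Fgfr3 0.0605 ± 0.0773 FPKM and Fgfr4 0.0174 ± 0.0242 FPKM. On the deposited FPKM the lowest value of Frs2, 10.2, exceeded the highest of Fgfrl1, 4.33, and every other pair of neighbours in this order overlapped between tumours. Frs2 stood above 80.0% of the 20482 listed genes in mean FPKM, Fgfr1 above 54.4% and Fgfr4 above 5.94%. Gene lengths behind the deposited FPKM differ from the annotation used here, but the means of CPM per kilobase of annotated exon kept the same order of the 10 genes. The gap above Fgfrl1 did not hold on that scale: in resistant tumour 3 Fgfrl1 had 7.44 and Frs2 6.68 CPM per kilobase, and in resistant tumour 2 Fgfr1 had 7.06 and Frs2 7.02.

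**Figure D1:**
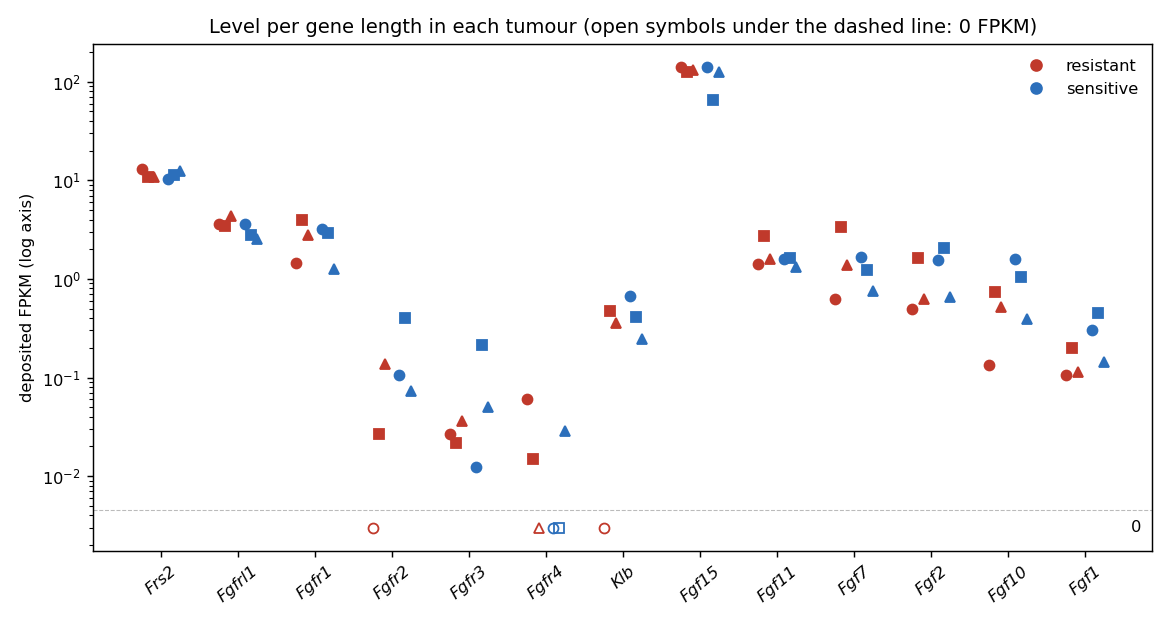
Deposited FPKM on a log axis for the 10 FGF genes and for 3 further FGF ligands, one symbol per tumour (circle 1, square 2, triangle 3; resistant red and left, sensitive blue and right); open symbols under the dashed line are tumours at 0 FPKM. Fgf15 lies far above the other ligands, Frs2 is the tightest of the 10, and Fgfr4 is at 0 in 3 tumours.

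The upstream sequences of 3 genes are printed: Frs2 and Fgfr4, the ends of that order, and Klb from within it. Frs2 was read evenly in every tumour and Fgfr4 was nearly unread. Klb, like Fgfr2, was unread in resistant tumour 1 only. Each line gives the 250 bases before the RefSeq start of the gene on its own strand, build GRCm38.p6, and the regions are chr10:117148475-117148724 (minus strand) for Frs2, chr13:55152568-55152817 (plus strand) for Fgfr4 and chr5:65348161-65348410 (plus strand) for Klb. Capitals mark GC boxes, searched as GGGCGG and its reverse complement CCGCCC.
Frs2: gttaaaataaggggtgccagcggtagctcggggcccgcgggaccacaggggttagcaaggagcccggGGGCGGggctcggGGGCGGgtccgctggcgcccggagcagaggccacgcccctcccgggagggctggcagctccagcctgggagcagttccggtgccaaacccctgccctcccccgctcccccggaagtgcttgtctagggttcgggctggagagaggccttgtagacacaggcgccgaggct
Fgfr4: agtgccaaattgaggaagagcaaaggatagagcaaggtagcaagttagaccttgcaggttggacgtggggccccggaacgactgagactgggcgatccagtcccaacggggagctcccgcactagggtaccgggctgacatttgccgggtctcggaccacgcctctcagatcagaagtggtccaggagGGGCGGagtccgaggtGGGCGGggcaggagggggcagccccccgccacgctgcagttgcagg
Klb: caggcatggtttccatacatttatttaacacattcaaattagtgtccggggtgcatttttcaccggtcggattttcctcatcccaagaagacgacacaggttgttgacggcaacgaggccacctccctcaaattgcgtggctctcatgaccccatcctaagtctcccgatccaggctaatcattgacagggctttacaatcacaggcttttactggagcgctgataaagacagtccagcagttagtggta
The sequence of Frs2 holds 2 GC boxes, 19 CG dinucleotides and 71.6% G and C. Fgfr4 also has 2 GC boxes, with 15 CG dinucleotides and 64.0% G and C, although it was nearly unread in these tumours. Klb has 0 GC boxes, 9 CG dinucleotides and 48.0% G and C. None of the 3 holds TATAAA or CCAAT on either strand. Of all 32851 promoters of the same length in the RefSeq table, 32.7% hold a GC box, 12.4% hold TATAAA and 33.9% hold CCAAT, and the median promoter has 6 CG dinucleotides and 52.4% G and C. A match is a description of letters, not a site of binding.

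Among the receptors, Fgfr1 (chr8:25513654-25575718, GRCm38) encodes the FGF receptor tyrosine kinase typical of mesenchymal cells. Fgfr1 had 25.6, 69.7 and 46.9 CPM in resistant tumours 1, 2 and 3, against 62.5, 53.9 and 22.4 CPM in sensitive tumours 1, 2 and 3. The groups overlapped completely, with resistant tumour 1 and sensitive tumour 3 low and the other 4 tumours at 46.9 CPM or more. Means were 47.4 ± 22.1 CPM in resistant and 46.3 ± 21.1 CPM in sensitive tumours (SD, n = 3 each). The log2 fold change was 0.03 (SE 0.48, interval -1.10 to 1.17, adjusted p = 0.983). The interval reaches past a doubling either way, so equality was not shown. The sign turned without resistant tumour 2, to -0.35, and without sensitive tumour 3, to -0.29.

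Fgfr1 made up most of the summed FPKM of the 4 signalling receptors in every tumour. Its share was 94.4%, 98.4% and 94.1% in resistant tumours 1 to 3, and 96.4%, 82.8% and 89.3% in sensitive tumours 1 to 3. The lowest share was that of sensitive tumour 2, where Fgfr2 took 11.2% and Fgfr3 took 6.05%. With annotated exon lengths the share of Fgfr1 was 95.7%, 98.7% and 95.3% in resistant and 97.3%, 85.2% and 91.1% in sensitive tumours.

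Fgfr2 (chr7:130162451-133123350), whose splice forms bind different ligands in epithelial and mesenchymal cells, had 0, 6 and 29 reads in resistant tumours, against 25, 91 and 17 reads in sensitive tumours. In CPM these were 0, 0.358 and 1.72 in resistant tumours and 1.55, 5.43 and 0.971 in sensitive tumours. The groups overlapped, since resistant tumour 3 exceeded sensitive tumours 1 and 3. The counts do not separate the splice forms. Means were 0.694 ± 0.910 CPM in resistant and 2.65 ± 2.42 CPM in sensitive tumours (SD, n = 3 each), with a log2 fold change of -1.92 (SE 1.28, interval -4.97 to 1.13, adjusted p = 0.587). Without resistant tumour 3 it was -3.83, with an unadjusted p of 0.0477 and an adjusted p of 0.753 by edgeR's quasi-likelihood test. That was the lowest with 1 tumour left out. The highest was -0.85 without sensitive tumour 2, the tumour rich in T and B cell RNA. The part of that RNA in the Fgfr2 reads was not tested. The annotated span of Fgfr2 reaches past its RefSeq start, since the 250 bases before that start, chr7:130266809-130267058 (minus strand), lie inside it. Ctbp2, on the same strand, shares 314 exonic bases with Fgfr2 in the annotation. Ctbp2 had 58.67, 72.3 and 70.15 CPM in resistant tumours, against 68.87, 45.29 and 65.57 CPM in sensitive tumours. The part of Ctbp2 reads in the Fgfr2 counts was not tested.

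Fgfr3 and Fgfr4 did not pass the filter on low counts, so the main test did not cover them. Fgfr3 (chr5:33721674-33737068) had 6, 5 and 8 reads in resistant tumours, against 3, 51 and 12 reads in sensitive tumours. Only sensitive tumour 2 stood out, at 3.04 CPM against at most 0.685 CPM in the other 5 tumours. With no filter its log2 fold change was -1.74 (adjusted p = 0.588 by edgeR's quasi-likelihood test), and DESeq2 gave -1.78 (adjusted p = 0.573). It passed the filter without resistant tumour 1, 2 or 3, at -1.73, -1.63 and -1.96. The unadjusted p-values there were 0.209, 0.239 and 0.178 by edgeR's quasi-likelihood test. It also passed without sensitive tumour 1, at -2.25, with an unadjusted p of 0.030 and an adjusted p of 0.633 by the same test. The opposite-strand transcript G630022F23Rik shares 998 exonic bases with Fgfr3, and it was read in sensitive tumour 2 alone, at 0.656 CPM. No source used here states whether the counting used strand, so the reads of the pair cannot be told apart.

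Fgfr4 (chr13:55152640-55168759), the hepatocyte receptor for FGF15 in normal liver, had 4, 1 and 0 reads in resistant tumours, against 0, 0 and 2 reads in sensitive tumours. No fold is given for these 7 reads in all 6 libraries, and in 5 of the 6 tumours the count was at or under the floor of 3. At this depth, a difference between the groups was not detectable.

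Fgfrl1 (chr5:108692382-108706924) encodes a receptor-like protein that binds FGFs but lacks the tyrosine kinase domain. It had 17.7, 17.3 and 20.7 CPM in resistant tumours, against 19.7, 14.1 and 12.8 CPM in sensitive tumours. Sensitive tumour 1 lay inside the resistant range, so the groups overlapped. Means were 18.6 ± 1.86 CPM in resistant and 15.6 ± 3.67 CPM in sensitive tumours (SD, n = 3 each), and the log2 fold change was 0.25 (SE 0.23, interval -0.31 to 0.81, adjusted p = 0.684), or 0.48 without sensitive tumour 1 and 0.14 without sensitive tumour 3. Fgfrl1 was the least variable receptor gene, with a coefficient of variation of 18.0% over the 6 tumours, where counting error alone gives 5.92%. That of Fgfr1 was 41.2%, against 3.58% from counting alone.

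**Figure D2:**
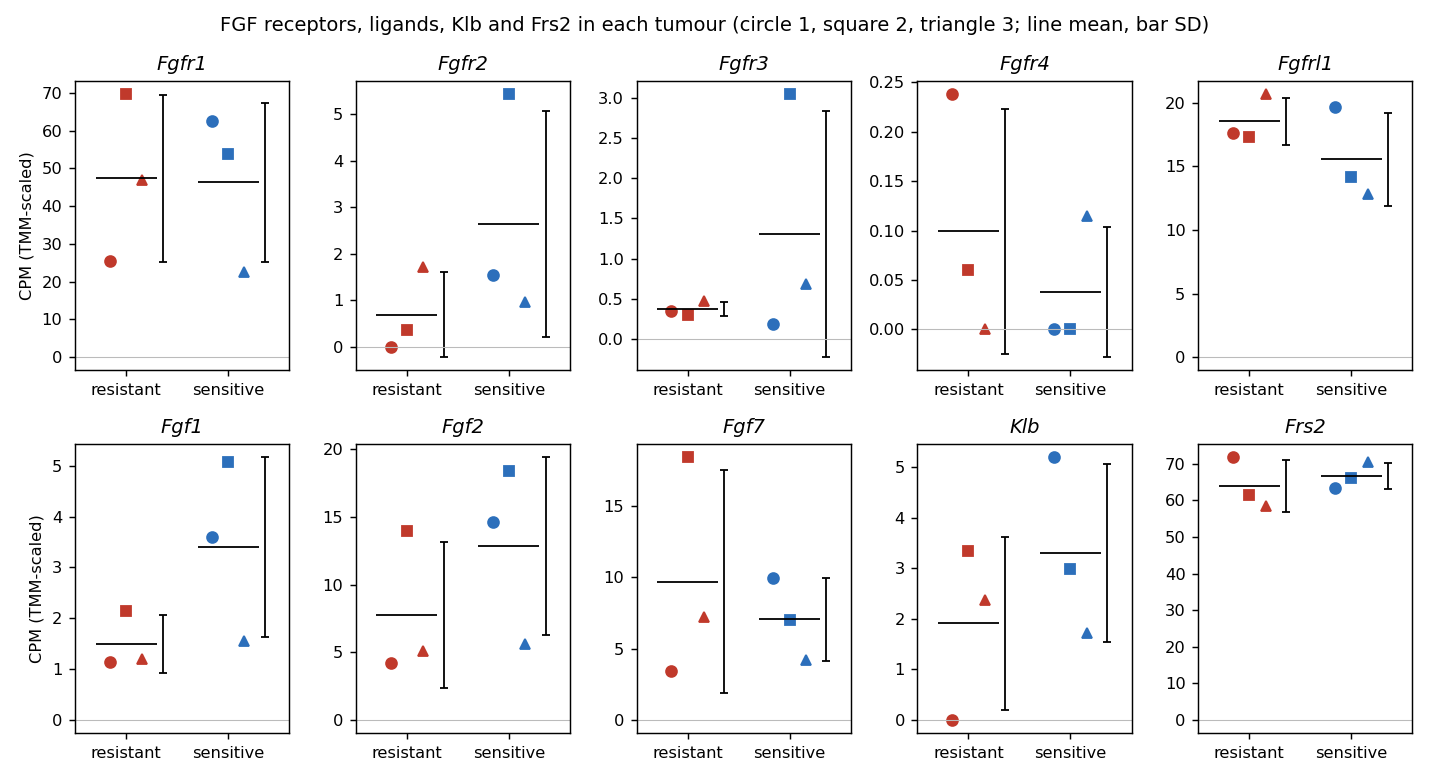
TMM-scaled CPM of the 10 FGF genes in resistant (red, left) and sensitive (blue, right) tumours, one symbol per tumour (circle 1, square 2, triangle 3), with the group mean as a line and the SD as a bar (n = 3 each); each panel has its own axis. The groups overlap in every panel, Fgfr2 and Fgfr3 are highest in sensitive tumour 2, and Klb is at 0 in resistant tumour 1.

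Of the ligands, Fgf7 (chr2:126034658-126091185), the keratinocyte growth factor made by fibroblasts, had 3.39, 18.4 and 7.19 CPM in resistant tumours, against 9.98, 6.98 and 4.17 CPM in sensitive tumours. Resistant tumours held both the highest and the lowest value. Means were 9.68 ± 7.83 CPM in resistant and 7.04 ± 2.91 CPM in sensitive tumours (SD, n = 3 each). The log2 fold change was 0.46 (SE 0.65, interval -1.09 to 2.00, adjusted p = 0.796), and it was -0.41 without resistant tumour 2.

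Fgf2 (chr3:37348346-37410108), basic FGF, a ligand of several FGF receptors that promotes vessel growth, had 4.22, 14.0 and 5.11 CPM in resistant tumours, against 14.6, 18.4 and 5.60 CPM in sensitive tumours. Resistant tumours 1 and 3 and sensitive tumour 3 were low and the other 3 high, so the groups overlapped. Means were 7.77 ± 5.39 CPM in resistant and 12.9 ± 6.57 CPM in sensitive tumours (SD, n = 3 each), with a log2 fold change of -0.73 (SE 0.61, interval -2.19 to 0.73, adjusted p = 0.657). With 1 tumour left out it ranged from -1.46 without resistant tumour 2 to -0.43 without resistant tumour 1 and -0.38 without sensitive tumour 2. Without resistant tumour 2 the unadjusted p was 0.0482 and the adjusted p 0.607 by edgeR's quasi-likelihood test. Nudt6, transcribed from the opposite strand, shares 640 exonic bases with Fgf2. It had 3.15, 4.06 and 6.96 CPM in resistant tumours and 4.71, 2.69 and 3.54 CPM in sensitive tumours, and without strand the shared reads cannot be assigned.

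Fgf1, acidic FGF, which can bind all 4 signalling receptors, had 1.13, 2.15 and 1.19 CPM in resistant tumours, against 3.60, 5.07 and 1.54 CPM in sensitive tumours. Sensitive tumours 1 and 2 were the highest, while sensitive tumour 3 lay inside the resistant range. Means were 1.49 ± 0.572 CPM in resistant and 3.40 ± 1.77 CPM in sensitive tumours, with n = 3 each and the SD as error. The log2 fold change of -1.19 (SE 0.55, interval -2.51 to 0.13) had the smallest p among the 8 tested FGF genes, 0.0703 unadjusted and 0.517 adjusted by edgeR's quasi-likelihood test. It was -0.78 without sensitive tumour 2, and -1.53 without sensitive tumour 3. In the latter fit its unadjusted p was 0.0201 and its adjusted p 0.258 by the same test. Without that tumour, 2666 of 14939 genes tested had an unadjusted p under 0.05.

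**Figure D3:**
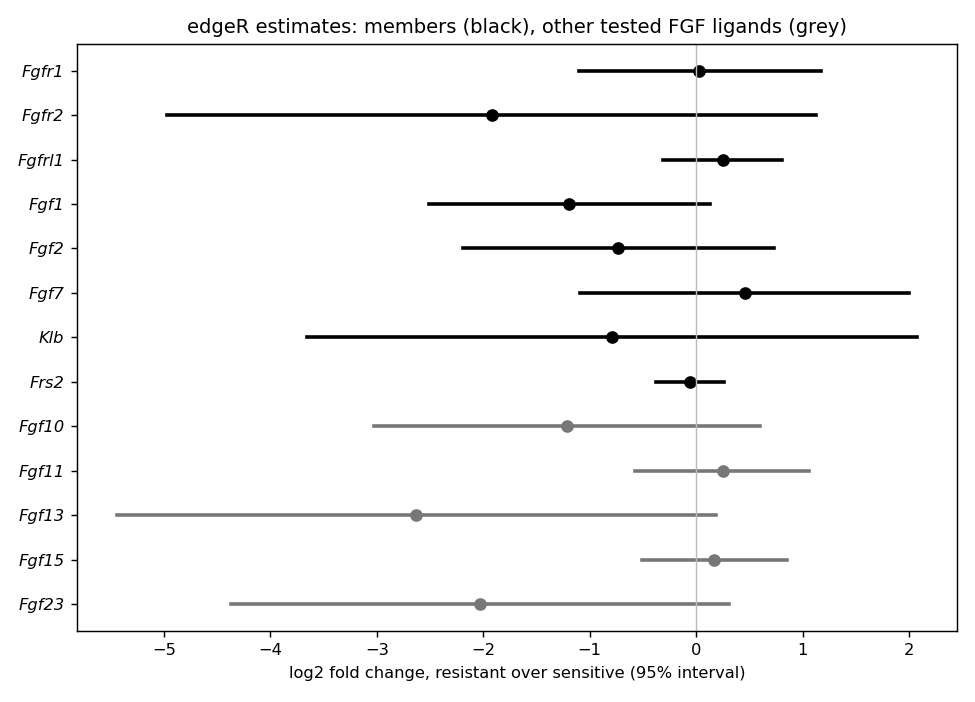
Log2 fold change of resistant over sensitive tumours with its 95% confidence interval for the 8 tested genes of the 10 (black) and for the 5 other tested FGF ligands (grey). Every interval includes 0; those of Frs2 and Fgfrl1 are the narrowest, and those of Fgfr2, Klb and Fgf13 are among the widest.

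Klb (chr5:65348314-65384007), which encodes beta-Klotho, the co-receptor for FGF15, had 0, 56 and 40 reads in resistant tumours, against 84, 50 and 30 reads in sensitive tumours. In CPM these were 0, 3.34 and 2.38 in resistant tumours and 5.21, 2.98 and 1.71 in sensitive tumours. Resistant tumour 1 was the exception, and the other 5 tumours formed overlapping groups. Means were 1.91 ± 1.72 CPM in resistant and 3.30 ± 1.77 CPM in sensitive tumours (SD, n = 3 each). The log2 fold change was -0.79 (SE 1.20, interval -3.66 to 2.08, adjusted p = 0.810) and ranged from -1.48 without resistant tumour 2 to -0.20 without resistant tumour 1.

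Frs2 (chr10:117069427-117148534), the docking protein that FGF receptors phosphorylate, had 71.9, 61.4 and 58.4 CPM in resistant tumours, against 63.3, 66.2 and 70.5 CPM in sensitive tumours. The highest tumour had 1.23 times the CPM of the lowest, and the groups overlapped. Means were 63.9 ± 7.09 CPM in resistant and 66.7 ± 3.62 CPM in sensitive tumours (SD, n = 3 each). The log2 fold change was -0.06 (SE 0.13, interval -0.38 to 0.26, adjusted p = 0.876), and 0.02 with library size as the only scaling. Its coefficient of variation over the 6 tumours, 8.05%, was the lowest of the 10 genes, against 3.02% from counting error alone.

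Of the 8 tested FGF genes, 3 had a log2 fold change above 0 and 5 below 0, and the median was -0.40. Over all 14392 genes tested, 47.3% lay above 0. With library size as the only scaling Frs2 also lay above 0. The genes with the widest spread over tumours were Fgfr4, Fgfr3 and Fgfr2, with coefficients of variation of 138%, 130% and 117%, where counting error alone gives 92.6%, 26.6% and 18.9%. Klb, Fgf7, Fgf1 and Fgf2 lay between 58.7% and 66.7%, with counting error at 7.62% to 15.7%.

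Some FGF genes were low in the same libraries as markers of other cell types. Summed over 10 fibroblast markers, all detected in every tumour, resistant tumours had 2249, 6892 and 5472 CPM and sensitive tumours had 4287, 3476 and 1867 CPM. The 2 tumours with the lowest sums, resistant tumour 1 and sensitive tumour 3, were also the 2 lowest for Fgfr1 and Fgf7 and among the 3 lowest for Fgf2. Macrophage markers were lowest in the same 2 tumours, with sums of 601, 2011 and 1329 CPM in resistant and 1267, 1332 and 772 CPM in sensitive tumours. Resistant tumour 3 had a higher fibroblast sum than sensitive tumours 1 and 2. It had less Fgfr1 (46.9 CPM) and less Fgf2 (5.11 CPM) than either. Of the 10 fibroblast markers 6 had a log2 fold change above 0, and the edgeR fit gave none of them an unadjusted p under 0.05, while DESeq2 gave 1, Col1a2. The part of fibroblast or macrophage RNA in these values was not tested.

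The sum over 10 fat markers was 75.1, 1090 and 834.8 CPM in resistant tumours and 2616, 2332 and 750.7 CPM in sensitive tumours. Resistant tumour 1, where Klb was unread, had the least, and sensitive tumour 1, where Klb was highest, had the most. Sensitive tumour 2 had a higher sum than resistant tumour 2 but less Klb, 2.98 against 3.34 CPM. All 10 fat markers had a log2 fold change below 0, with a median of -1.50. In edgeR's quasi-likelihood fit 2 of them had an unadjusted p under 0.05, against 9.76% of all genes tested. DESeq2 gave 3, edgeR's exact test 2 and limma-voom 1. Fabp4, a lipid carrier of fat cells, had 226.1 ± 177.6 CPM in resistant and 601.3 ± 303.2 CPM in sensitive tumours (SD, n = 3 each; log2 fold change -1.41, SE 0.84, adjusted p = 0.558). Endothelial markers were likewise all 10 below 0, with a median of -0.66 and sums of 163.5, 267.2 and 244.6 CPM in resistant and 374.8, 537.9 and 233.4 CPM in sensitive tumours. Of these 10, 2 had an unadjusted p under 0.05 in edgeR's quasi-likelihood fit, 4 by DESeq2, 4 by edgeR's exact test and 2 by limma-voom. None of these markers was called after adjustment, and their part in the Klb and Fgf1 values was not tested.

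**Figure D4:**
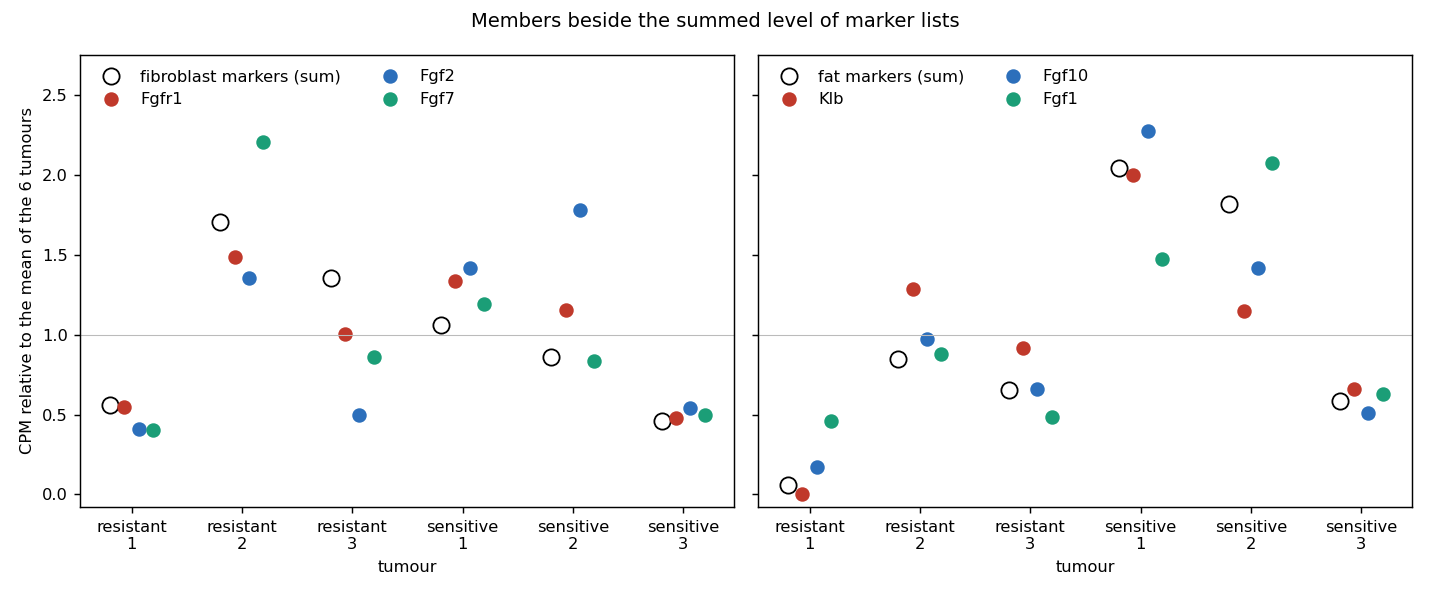
CPM in each tumour relative to the mean of the 6 tumours (line at 1.0), resistant tumours left and sensitive tumours right in each panel. The left panel shows Fgfr1, Fgf2 and Fgf7 beside the sum of 10 fibroblast markers (open circles), all low in resistant tumour 1 and sensitive tumour 3; the right panel shows Klb, Fgf10 and Fgf1 beside the sum of 10 fat markers, all low in resistant tumour 1.

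For the 3 tested genes with the widest range of log2 CPM, the most similar profiles over the 6 tumours were sought among 12419 tested genes, by the root mean square difference of centred log2 CPM. A prior count of 2 entered the log2 CPM. Fgfr2 and Klb had 0 reads in resistant tumour 1, so this prior set the low end of their ranges and bears on their likeness to other genes. Fgfr2, with a range of 5.54, was closest to Gm28177 (0.352), Cxcr6 (0.372) and Gzma (0.416). Klb, with a range of 5.48, was closest to Tshr (0.331), Slc16a7 (0.385) and Mrap (0.403). Fgf7, with a range of 2.40, was closest to Gfpt2 (0.142), Clmp (0.148) and Adgrd1 (0.149). Cxcr6, a chemokine receptor of T and natural killer cells, had 0.119, 0.955 and 2.20 CPM in resistant tumours and 4.03, 10.3 and 2.97 CPM in sensitive tumours. Tshr, the thyrotropin receptor, had 0.119, 6.87 and 2.91 CPM in resistant tumours and 12.0, 7.64 and 3.71 CPM in sensitive tumours. Likeness over 6 libraries that share these differences in cell content is a description.

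Of 20 other FGF ligand and Klotho genes listed, 13 were in the table, 5 were tested and none had an unadjusted p under 0.05 in edgeR's quasi-likelihood fit. DESeq2 and edgeR's exact test each gave 1, Fgf13, and limma-voom 0, with none called after adjustment. Fgf15 (chr7:144896531-144900953), the bile acid hormone made by the intestine in normal mice, was by far the most abundant ligand. It averaged 121.6 FPKM over the 6 tumours, above 98.5% of all listed genes. Its CPM was 248.2, 226.7 and 225.6 in resistant tumours, against 277.7, 121.2 and 224.3 in sensitive tumours. The resistant tumours lay close together inside the sensitive range, whose low end was sensitive tumour 2. Means were 233.5 ± 12.7 CPM in resistant and 207.7 ± 79.5 CPM in sensitive tumours (SD, n = 3 each; log2 fold change 0.17, SE 0.29, interval -0.51 to 0.85, adjusted p = 0.834), and the log2 fold change was -0.10 without sensitive tumour 2.

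Fgf15 made up 98.5%, 94.7% and 97.0% of the summed FPKM of 12 secreted FGF ligands in resistant tumours 1 to 3, and 95.9%, 87.7% and 97.7% in sensitive tumours 1 to 3. Its FPKM was 282, 77.8 and 212 times that of Fgf2 in resistant tumours and 91.0, 31.6 and 192 times that of Fgf2 in sensitive tumours. The receptor and co-receptor that carry its signal in hepatocytes were at 7 reads in all for Fgfr4 and 260 reads in all for Klb. The bile acid synthesis enzyme Cyp7a1, which FGF15 lowers in liver, had 0.297, 0.119 and 0.357 CPM in resistant tumours and 0.372, 0.119 and 0.0571 CPM in sensitive tumours, in each case from at most 6 reads. Gm26793, on the opposite strand, shares 761 exonic bases with Fgf15 but had at most 4.40 CPM.

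The other ligands were read far less. Fgf11, an intracellular family member, had 7.37, 14.5 and 8.03 CPM in resistant tumours, against 9.24, 8.95 and 7.03 CPM in sensitive tumours (log2 fold change 0.25, SE 0.34, adjusted p = 0.791). Fgf10, a mesenchymal ligand of the epithelial form of FGFR2, had 0.654, 3.70 and 2.50 CPM in resistant tumours, against 8.62, 5.37 and 1.94 CPM in sensitive tumours (log2 fold change -1.21, SE 0.76, adjusted p = 0.571). Both sets overlapped. With 1 tumour left out, the log2 fold change of Fgf10 ranged from -1.75 without resistant tumour 2 to -0.66 without sensitive tumour 1. That of Fgf11 turned to -0.12 without resistant tumour 2. The 2 highest Fgf10 values were in the 2 tumours with the most fat marker RNA.

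Fgf13, another intracellular family member, had 0.0594, 0.239 and 0.832 CPM in resistant tumours, against 1.98, 4.83 and 0.286 CPM in sensitive tumours (log2 fold change -2.63, SE 1.18, adjusted p = 0.515). Its unadjusted p was 0.0631 by edgeR's quasi-likelihood test, 0.0295 by DESeq2 and 0.0364 by edgeR's exact test. Fgf23, the phosphate hormone of bone, had 0.535, 0.657 and 0.476 CPM in resistant tumours, against 0.930, 5.55 and 0.400 CPM in sensitive tumours (log2 fold change -2.03, SE 0.98, adjusted p = 0.520). Sensitive tumour 2 was the highest for both, and without it the log2 fold changes were -1.56 for Fgf13 and -0.25 for Fgf23. Fgf9, Fgf18 and Fgf21 did not pass the filter, with 55, 57 and 15 reads in all 6 tumours.

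All 20 listed adaptors and kinases downstream of FGF receptors were tested, and none had an unadjusted p under 0.05 by edgeR's quasi-likelihood or exact test, DESeq2 or limma-voom. Their median log2 fold change was 0.06, with 12 above 0 and 7 below 0. The groups did not overlap in 2 of the 20 adaptors, as held for 16% of all genes tested. Map2k1, the MAP kinase kinase MEK1, had a log2 fold change of 0.22, Cbl, a ubiquitin ligase that turns receptors over, -0.29, and Plcg1, a phospholipase that FGF receptors bind, -0.25. Without sensitive tumour 2 these were -0.11 for Cbl and -0.10 for Plcg1.

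Feedback and target genes of the pathway, 17 tested of 18 listed, had a median log2 fold change of 0.06, and none had an unadjusted p under 0.05 in edgeR's quasi-likelihood fit. DESeq2 gave 2 (Egr1 and Flrt3), edgeR's exact test 1 (Flrt3) and limma-voom 1 (Egr1), with none called after adjustment. Egr1, an immediate early transcription factor, had 28.8, 78.3 and 23.8 CPM in resistant tumours, against 99.9, 86.4 and 67.7 CPM in sensitive tumours. Resistant tumours 1 and 3 were low and resistant tumour 2 lay inside the sensitive range (log2 fold change -0.95, SE 0.46, adjusted p = 0.520). The unadjusted p of Egr1 was 0.0784 by edgeR's quasi-likelihood test, 0.0285 with a replicate block, 0.0349 by DESeq2 and 0.0317 by limma-voom. With 1 tumour left out its log2 fold change ranged from -1.67 without resistant tumour 2 to -0.66 without resistant tumour 3. By edgeR's quasi-likelihood test the unadjusted p was 0.000657 and 0.198 in these fits, and the adjusted p was 0.607 and 0.763.

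Il17rd, the FGF antagonist also known as Sef, had 9.57, 9.67 and 8.14 CPM in resistant tumours, against 5.45, 7.40 and 6.63 CPM in sensitive tumours. Its groups did not overlap, yet the difference did not pass the test (log2 fold change 0.49, SE 0.26, adjusted p = 0.531). Flrt3, a membrane protein that binds FGF receptors, had 0.535, 0.597 and 0.951 CPM in resistant tumours, against 2.36, 23.9 and 0.0571 CPM in sensitive tumours. Its log2 fold change of -3.64 (SE 1.61, adjusted p = 0.515) was -0.78 without sensitive tumour 2. The unadjusted p of Flrt3 was 0.0596 by edgeR's quasi-likelihood test, 0.00439 by DESeq2 and 0.0264 by edgeR's exact test. Ccnd1, a cyclin that drives entry into S phase, had 378.8 ± 42.9 CPM in resistant and 324.8 ± 41.8 CPM in sensitive tumours (SD, n = 3 each; log2 fold change 0.22, SE 0.16, adjusted p = 0.600).

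Of 24 listed genes for heparan sulfate and FGF binding, 23 were tested and 1 had an unadjusted p under 0.05 in edgeR's quasi-likelihood fit and by each of the other tools, against 9.76% of all genes. That gene was Sdc1, a heparan sulfate proteoglycan of the cell surface, with 137.5, 134.1 and 131.7 CPM in resistant tumours, against 113.3, 82.6 and 91.4 CPM in sensitive tumours. All 3 resistant tumours lay above all 3 sensitive ones. The log2 fold change was 0.49 (SE 0.14, interval 0.15 to 0.83), with an unadjusted p of 0.0123 and an adjusted p of 0.510, so it was not called. Gpc4, a heparan sulfate proteoglycan anchored in the membrane, had 4.25 ± 2.41 CPM in resistant and 9.81 ± 6.44 CPM in sensitive tumours (SD, n = 3 each; log2 fold change -1.21, SE 0.71, adjusted p = 0.555), and its log2 fold change ranged from -1.62 without sensitive tumour 3 to -0.80 without resistant tumour 1 and -0.66 without sensitive tumour 2. The chain-building enzymes Extl3 and Ext1 had log2 fold changes of -0.32 and 0.26, which were -0.19 and 0.15 without sensitive tumour 2.

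Among 14 listed genes for receptor splicing, receptor partners and the Fgf15 axis, 12 were in the table and 6 were tested, with none at an unadjusted p under 0.05 by edgeR's quasi-likelihood or exact test, DESeq2 or limma-voom. Esrp1 and Esrp2, which direct the epithelial splice form of FGFR2, had at most 0.400 CPM in any tumour. Flrt2, an adhesion protein related to Flrt3, had 7.94 ± 3.10 CPM in resistant and 15.1 ± 9.02 CPM in sensitive tumours (SD, n = 3 each; log2 fold change -0.93, SE 0.53, adjusted p = 0.541), and the log2 fold change was -0.38 without sensitive tumour 1. The adhesion molecules L1cam and Cdh2 had log2 fold changes of -1.69 and -1.03, which were -0.55 and 0.18 without sensitive tumour 2. Ncam1, an adhesion molecule that binds FGF receptors, had a log2 fold change of 0.54 (SE 0.48, adjusted p = 0.675), which was 0.23 without resistant tumour 2 and 0.89 without sensitive tumour 1. Across the 5 lists together, 71 genes were tested. In edgeR's quasi-likelihood fit 1 of them had an unadjusted p under 0.05, against 9.76% of all genes tested, and 5 had groups that did not overlap, against 16% of all genes tested.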

How the data were processed

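RNA was isolated from 6 snap-frozen tumours with TRIzol, and the library kit was VAHTS Universal V6, as the labels' protocols state. The authors deposited whole-number read counts per gene and FPKM per gene in separate tables. HISAT2, StringTie and edgeR are named in the submitters' processing notes without versions or steps. No source used here names the genome build, annotation or strand setting. The deposited FPKM imply gene lengths that differ from exonic lengths of GENCODE mouse release 21 (GRCm38), from which coordinates were taken by identifier (20355 identifiers, 99.4%). Upstream sequences are from a RefSeq table (GRCm38.p6), and none was taken for Fgfr1, Fgf1 or Fgf15. Spreadsheet dates had replaced 24 symbols, which were restored by identifier.

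Counts were filtered with filterByExpr, scaled by TMM and fitted with edgeR 4.0.16 (glmQLFit, glmQLFTest; R 4.3.3), without covariates, over 14392 genes, after the code was tested on simulated data. Alternatives were DESeq2 1.42.0, edgeR's exact test, limma 3.58.1 (voom on counts, trend on log2(FPKM + 1) and log2(FPKM + 0.1)), 3 other scalings, 2 other filters, a replicate block and leaving out each tumour. The 10 FGF genes and the other lists were chosen with earlier results of these data known. Named were all 10 FGF genes, up to 4 genes of each pathway list with the smallest p, other FGF ligands with at least 10 reads, the 3 most similar genes for each of the 3 FGF genes of widest range, and up to 2 genes of each marker list with the highest mean CPM. Hnf4a, Cyp7a1, Esrp1, Esrp2, overlapping genes and the neighbours of Fgf15 were named after their values were seen. Some genes that these rules would name are not reported here.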

Additional observations from a re-analysis of the deposited data

How the results depend on the processing

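The count of 0 called genes was 115 by DESeq2 and 39 by edgeR's exact test, and 0 under the other alternatives. The 1404 genes at an unadjusted p under 0.05 ranged over 631 (without resistant tumour 1), 920 (without resistant tumour 2), 834 (without resistant tumour 3), 934 (without sensitive tumour 2) and 2666 (without sensitive tumour 3). The split was 1003 higher and 340 lower on log2(FPKM + 1). FGF genes called stayed at 0 in every alternative, and those at an unadjusted p under 0.05 ranged from 0 to 1 when a tumour was left out: Fgf2 without resistant tumour 2, Fgfr2 without resistant tumour 3, Fgfr3 without sensitive tumour 1 and Fgf1 without sensitive tumour 3. Leaving out a tumour moved the log2 fold change of Fgfr1 between -0.35 and 0.34, of Fgf7 between -0.41 and 0.87, of Fgf11 between -0.12 and 0.43, of Fgf15 between -0.10 and 0.46, of Cdh2 between -1.42 and 0.18 and of Frs2 between -0.15 and 0.00. That of Frs2 was 0.02 with library size scaling and on both log2(FPKM) scales. The cause of these moves was not tested. The other 481 of 491 named-gene values kept their direction and their side of the threshold. With a replicate block 1120 genes had an unadjusted p under 0.05 and 0 were called. Deviations of same-numbered tumours correlated at r = 0.05, 0.31 and -0.16 and only tumours numbered 2 correlated best with their own number, so the numbers were not taken as pairs. Depth limits Fgfr4 and Fgfr3, and with 3 tumours a group the intervals of Fgfr2 and Klb span changes of several fold.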

Other observations

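Some genes near Fgf15 on chromosome 7 were also read at high levels, and others in the same window were not. Of 13 listed genes within 500 kb of Fgf15 (GRCm38), Fgf15 itself had the highest level per length, at 132.6 ± 7.23 FPKM in resistant and 110.5 ± 39.7 FPKM in sensitive tumours (SD, n = 3 each). Ccnd1, a neighbouring cyclin gene, had 92.6 ± 12.3 FPKM in resistant and 74.9 ± 12.1 FPKM in sensitive tumours. Cttn, which encodes an actin-binding protein, had 30.2 ± 1.88 FPKM in resistant and 22.5 ± 4.76 FPKM in sensitive tumours (log2 fold change 0.34, SE 0.17, adjusted p = 0.524 by edgeR's quasi-likelihood test). Ano1, a chloride channel gene, had 20.4 ± 6.00 FPKM in resistant and 17.7 ± 5.77 FPKM in sensitive tumours. Oraov1, which starts between Fgf15 and Ccnd1, was lower, at 3.37 ± 0.270 FPKM in resistant and 2.94 ± 0.566 FPKM in sensitive tumours. Its annotated span overlaps that of Ccnd1 on the opposite strand, and without strand reads there cannot be assigned. Ppfia1 had 6.11 ± 0.448 FPKM in resistant and 5.65 ± 1.06 FPKM in sensitive tumours. In the same order, Tpcn2 had 5.97 ± 0.835 and 6.12 ± 0.832 FPKM, and Fadd 2.425 ± 0.249 and 3.02 ± 0.373 FPKM. Gm26793 averaged 1.28 and 0.443 FPKM, and Mrgprf 0.481 and 0.681 FPKM. Shank2, Gm14372 and Gm14376 were lower still in both groups. Copy number was not measured.

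Gm26793, the transcript that overlaps Fgf15 on the opposite strand, had 4.40, 2.15 and 3.63 CPM in resistant tumours, against 1.24, 1.13 and 1.37 CPM in sensitive tumours. All 3 resistant tumours lay above all 3 sensitive ones, and the groups did not overlap in 16% of all genes tested. The difference was not called (log2 fold change 1.44, SE 0.41, adjusted p = 0.510 by edgeR's quasi-likelihood test). Fgf15, at 121.2 to 277.7 CPM, shares 761 exonic bases with Gm26793. Without strand, reads of those bases cannot be assigned.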
